A study of Homo sapiens with 7 samples.

Results

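The plasminogen activation system was examined in HT1080 cells through 4 of its genes, PLAU, PLAUR, PLAT and SERPINE2. Every probe set that the platform annotation assigned to 1 of these genes alone was taken, which gave 8 probe sets of the 41097 assigned to a single gene and 4 genes of 19775. HT1080 is an established human fibrosarcoma line, and 7 cultures of it were each read on 1 Affymetrix array. Plant polyphenols were present for 2 h in 4 cultures, 1 compound in each: catechin (11.25 ng/ml), resveratrol (2195 ng/ml), and epicatechin and taxifolin (both 6.25 ng/ml). Another culture received 5% pycnogenol-positive serum for 2 h, which the protocol describes as coming from patients treated with the pine bark extract pycnogenol. A further culture received 5% control serum for 2 h, and the last was untreated. The medium was exchanged before the compounds and sera were added, but the labels give no such step, solvent or time for the untreated culture. They do not say who gave the control serum. All 7 cultures were of the same line, with no replicate of any condition, so the values below carry neither a replicate error nor a test, and each difference also holds the difference between 2 cultures and 2 arrays.

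Plasminogen is an inactive precursor that urokinase (uPA, the product of PLAU) and tissue-type plasminogen activator (tPA, the product of PLAT) cleave to plasmin, a broad protease of fibrin and extracellular matrix. The urokinase receptor (uPAR, the product of PLAUR) is a lipid-anchored surface protein that holds urokinase at the cell border. SERPINE2 encodes protease nexin I, a secreted serpin that traps urokinase, tissue-type activator, plasmin and thrombin. HT1080 is a classical cell source of urokinase, and the system is studied for its part in invasion.

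The stretch of 250 bases ahead of a RefSeq transcription start is shown for PLAU and PLAUR, the enzyme and its receptor, because these genes were read by several probe sets each and lay slightly low in the serum arrays. The sequences are from RefSeq's GRCh38.p14 table and run 5′ to 3′ along the gene. Capitals mark matches on either strand to AP-1 (TGANTCA) and Sp1 (GGGCGG).
PLAU, chr10:73910882-73911131, plus strand: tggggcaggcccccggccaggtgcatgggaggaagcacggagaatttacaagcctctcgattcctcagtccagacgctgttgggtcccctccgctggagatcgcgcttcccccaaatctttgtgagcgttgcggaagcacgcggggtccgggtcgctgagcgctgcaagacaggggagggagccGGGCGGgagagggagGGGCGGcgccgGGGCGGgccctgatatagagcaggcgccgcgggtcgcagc
PLAUR, chr19:43670170-43670419, minus strand: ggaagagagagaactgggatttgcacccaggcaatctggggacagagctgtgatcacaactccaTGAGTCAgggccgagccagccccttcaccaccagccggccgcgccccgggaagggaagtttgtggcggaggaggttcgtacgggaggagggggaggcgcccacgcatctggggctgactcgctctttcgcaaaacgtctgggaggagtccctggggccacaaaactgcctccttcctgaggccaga
The PLAU stretch held 3 Sp1 matches, between 66 and 35 bases ahead of the start, and its G and C bases made up 68.8%. The PLAUR stretch held 1 AP-1 match, TGAGTCA, from 186 to 180 bases ahead of the start, and no Sp1 match. The table gives PLAU another start, whose window at chr10:73910360-73910609 held no match, and gives SERPINE2 a pair of starts with 1 and 2 Sp1 matches. None of these 5 windows of PLAU, PLAUR and SERPINE2 held a match to CRE (TGACGTCA), SMAD (GTCTAGAC) or TATAAA. No window of PLAT was searched. Among all 35116 windows of this length in the table, 6.57% held AP-1, 42.6% Sp1, 1.65% CRE, 0.182% SMAD and 10.7% TATAAA, and none of the matches shown overlaps another. A match describes the letters and is no evidence of binding.

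All 4 genes were read at high signal in every culture. The values are MAS5 signals, a linear measure of probe brightness in arbitrary units, which cannot be compared between probe sets. The trimmed mean of each array was 1000, the median of a whole array lay between 114 and 136, and a gene was compared when its mean over arrays, on the log2 scale, reached that of 268.9 signal units, which 9888 genes did. Of the 8 probe sets, 7 passed, and the remaining SERPINE2 probe set, 227487_s_at, read 38 to 117 and is not interpreted. The 4 genes were also among the 1978 brightest genes, for which log2 differences between 2 arrays without test serum had a standard deviation (SD) over genes of 0.131 to 0.17, depending on which of the 10 pairs was taken. The cell line's label was checked against mesenchymal markers, of which 6 of 8 passed the filter, VIM at 46701 to 50229 and SPARC at 23181 to 27026. The epithelial markers CDH1 and EPCAM did not exceed 89 and 64, and the pan-leukocyte marker PTPRC did not exceed 80. Of the other-cell markers 1 of 5 epithelial (KRT8), 1 of 5 endothelial (TIE1) and 1 of 6 blood cell genes (HBB) passed. Their summed signals in serum and other arrays overlapped, at 571 to 847 against 637 to 813 for blood cell genes, at 3576 to 4102 against 3659 to 3982 for epithelial genes and at 1187 to 1318 against 1114 to 1279 for endothelial genes. The summed signal of the mesenchymal markers did not overlap, at 104007 to 107538 in the serum arrays against 95332 to 101003 in the others, and its part in the results below was not tested.

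**Figure D1:**
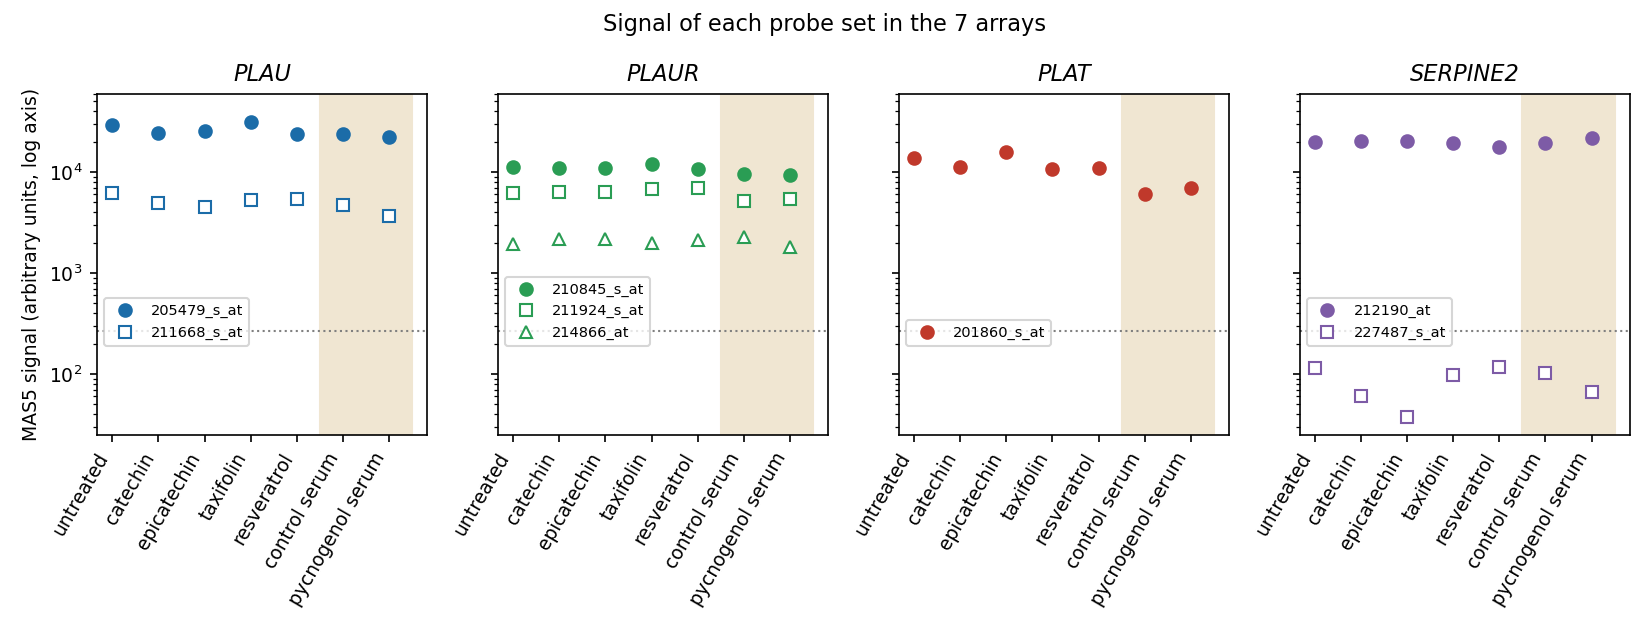
MAS5 signal on a log axis of each of the 8 probe sets in the 7 arrays, 1 point per array, with both serum arrays shaded, filled symbols for the probe set read for the gene and a dotted line at the filter's 268.9. PLAT steps down in the serum arrays to 6084 and 6914 from at least 10632 elsewhere, while the brighter SERPINE2 probe set stays between 17711 and 21959.

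PLAT, the gene of tissue-type plasminogen activator, was the member that differed most between cultures. Its only probe set, 201860_s_at, read 13706 in the untreated culture, 11264 with catechin, 15733 with epicatechin, 10632 with taxifolin and 11076 with resveratrol. In the cultures given serum it read 6084 (control) and 6914 (pycnogenol). Both serum arrays lay below all 5 others, and the gap between the higher serum array and the lowest other array was 0.62 (log2). A gap in this direction at least as wide was found for 48 of the 9888 genes, PLAT included, which is 0.485%. The mean log2 signal was 12.66 over the 2 serum arrays and 13.59 over the other 5, a difference of -0.93 or 1.9-fold, and the SD of the 5 was 0.24. These are 2 different sera and 5 different treatments, so neither set is a group of replicates.

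Against the untreated culture PLAT was 2.25-fold lower with control serum, a log2 difference of -1.17, and 36 of the 9888 genes were at least as low. Of the 4 genes it was the only one past 2-fold, where 1.2% of all genes compared were past 2-fold in either direction. In the band of the 1978 brightest genes, 5 were lower and 2 higher by at least 2-fold in that comparison. With pycnogenol serum PLAT was 1.98-fold lower than untreated, at -0.99, just short of 2-fold, and 153 genes were at least as low. None of the 4 genes was past 2-fold in that comparison, where 2.24% of all genes were. The values under quantile normalization and cyclic loess were -1.04 and -1.02, past 2-fold, so which side of the threshold PLAT lies on depends on the scaling. The serum comparisons share the untreated array and are not independent of each other. The probe set carries the suffix _s_at, which marks probes shared by several transcripts, and no other PLAT probe set was at hand to set beside it.

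**Figure D2:**
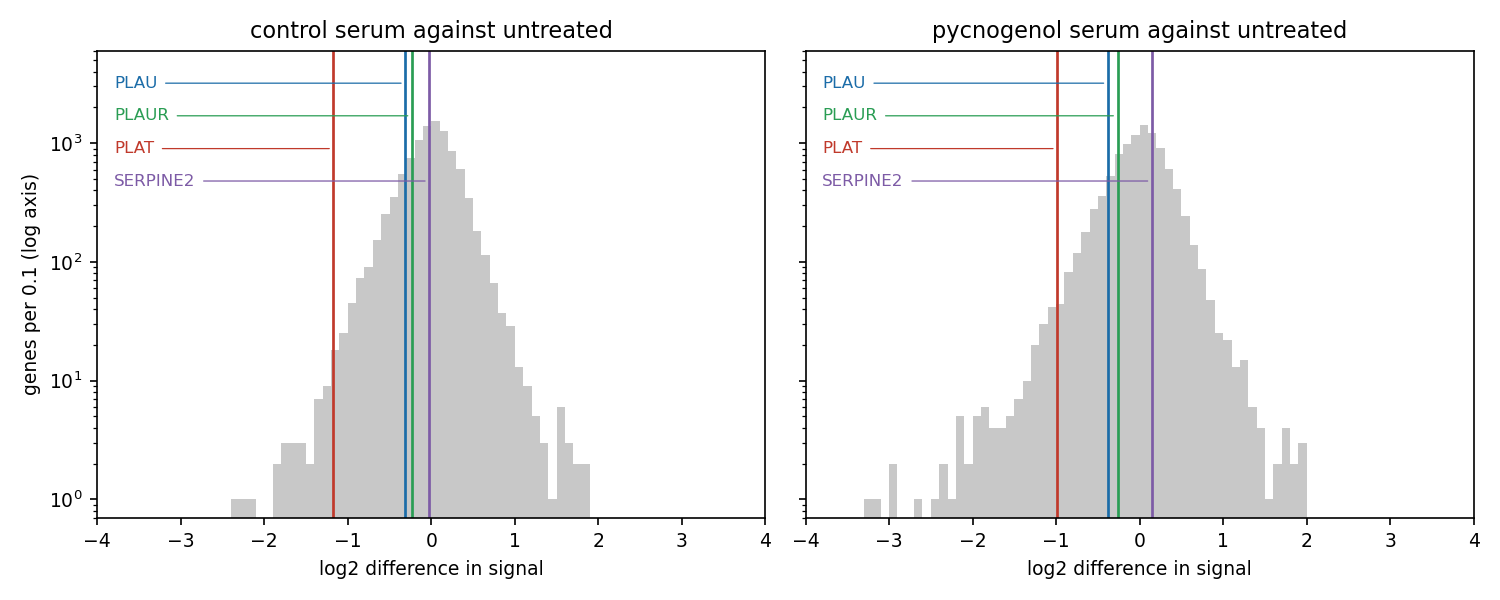
Number of genes per 0.1 of log2 difference from the untreated array, on a log axis, over the 9888 genes compared, for control serum (left) and pycnogenol serum (right); vertical lines mark the 4 genes. PLAT, at -1.17 and -0.99, lies in the lower tail of both, and PLAU, PLAUR and SERPINE2 lie within 0.4 of 0.

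PLAU, the urokinase gene, was lower in both serum cultures than in the untreated one by less than 1.5-fold on its brighter probe set. That probe set, 205479_s_at, read 29290 in the untreated culture, 24155 with catechin, 25427 with epicatechin, 31368 with taxifolin, 23784 with resveratrol, 23594 with control serum and 22488 with pycnogenol serum. The serum values were the lowest of the 7, but control serum lay only 0.01 (log2) under resveratrol, and under quantile normalization and median centring the serum arrays overlapped the others. The dimmer probe set, 211668_s_at, read 6179 untreated, 4905 with catechin, 4557 with epicatechin, 5287 with taxifolin, 5405 with resveratrol, 4699 with control serum and 3646 with pycnogenol serum. On it only pycnogenol serum lay below all others, and control serum was above epicatechin. The differences from untreated were -0.31 and -0.40 on the brighter and dimmer probe set with control serum and -0.38 and -0.76 with pycnogenol serum. Both probe sets were thus below 0 with either serum, but the dimmer was 1.69-fold lower and the brighter 1.3-fold lower with pycnogenol serum.

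PLAUR, the gene of the urokinase receptor, was also slightly lower with serum on 2 of its 3 probe sets. The brightest, 210845_s_at, read 11260 untreated, 10994 with catechin, 11097 with epicatechin, 11918 with taxifolin and 10716 with resveratrol, against 9587 with control serum and 9372 with pycnogenol serum. The next, 211924_s_at, read 6246, 6328, 6296, 6852 and 7035 in the same 5 cultures without test serum, against 5171 and 5417 in the serum cultures. On both probe sets the serum arrays lay below all 5 others, by gaps of 0.16 and 0.21 (log2), where the mean of the serum arrays was lower by 0.24 and 0.31 and the SD of the 5 arrays was 0.06 and 0.08. The third probe set, 214866_at, did not share this: it read 1944 untreated, 2189 with catechin, 2167 with epicatechin, 1981 with taxifolin and 2128 with resveratrol, 2301 with control serum and 1821 with pycnogenol serum. Control serum there was the highest of the 7 and pycnogenol serum the lowest. Under median centring the brightest PLAUR probe set no longer separated serum from the other arrays, with -0.06 for control serum and -0.15 for pycnogenol serum against untreated.

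SERPINE2, the serpin gene, differed least. Its brighter probe set, 212190_at, read 19844 untreated, 20157 with catechin, 20340 with epicatechin, 19328 with taxifolin, 17711 with resveratrol, 19506 with control serum and 21959 with pycnogenol serum. The whole range was 0.31 (log2), with the serum arrays on both sides of the untreated value, at -0.02 and 0.15. PLAUR was close to it, with a whole range of 0.35. Over the 5 arrays without test serum PLAUR ranged less, 0.15 against 0.20 for SERPINE2. Under median centring both serum arrays came to lie above the other 5.

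Over the 4 genes, each read from its brightest probe set, 3 had both serum arrays below the other 5 and none had both above. Of all genes compared, 16.1% lay below in this sense and 13.5% above. Quantile normalization kept PLAUR and PLAT as the separated genes, cyclic loess kept PLAU, PLAUR and PLAT, and median centring left PLAT below and put SERPINE2 above. PLAT was therefore the only member below under every scaling tried. The median difference of the 4 genes was -0.27 with control serum and -0.32 with pycnogenol serum against untreated, where the medians of all genes were 0.008 and 0.017. Median centring shifted the median of all genes to 0.176 and 0.132 in these comparisons, and relative to it PLAT lay at -1.18 and -1.0, PLAUR at -0.24 and -0.28, PLAU at -0.32 and -0.40 and SERPINE2 at -0.03 and 0.13.

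**Figure D3:**
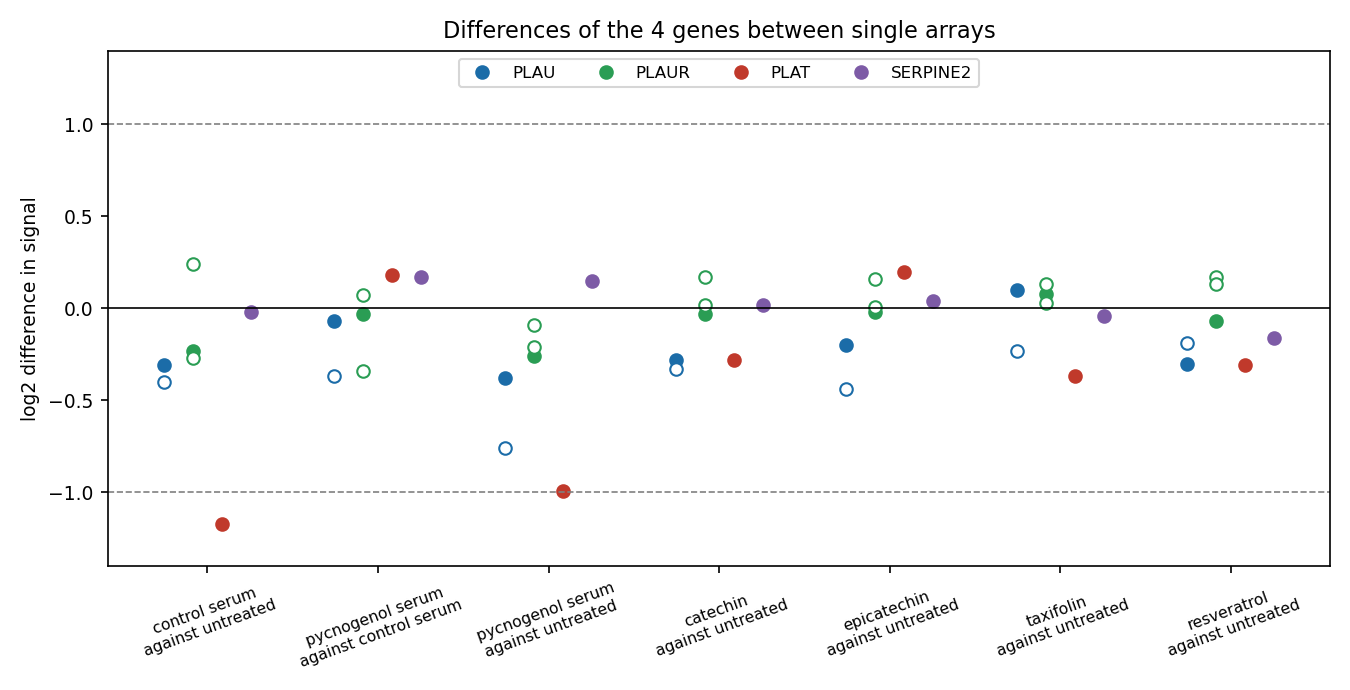
Log2 difference in signal between single arrays in 7 comparisons for every probe set past the filter, 1 point per probe set, filled where it was read for the gene and open otherwise; dashed lines mark 2-fold. PLAT passes the lower line with control serum at -1.17 and meets it with pycnogenol serum at -0.99, and no other point passes either line.

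Pycnogenol serum against control serum sets 1 culture and 1 array of each serum side by side. The labels do not say who gave the control serum, so intake of the extract cannot be told apart from donor, culture or array. None of the 4 genes was past 2-fold, where 0.536% of all genes were. The log2 differences were -0.07 for PLAU, -0.03 for PLAUR, 0.18 for PLAT and 0.17 for SERPINE2, with a median of 0.07 against 0.008 over all genes. The PLAT signal was 1.14-fold higher with pycnogenol serum than with control serum, a smaller step than that of either serum from the untreated array. The dimmer probe sets of PLAU and PLAUR gave -0.37 for 211668_s_at, 0.07 for 211924_s_at and -0.34 for 214866_at, so the probe sets of PLAUR did not share a sign.

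The 4 polyphenols gave smaller differences from the untreated culture than control serum did for PLAT, and none of the 4 genes was past 2-fold with any of them. The shares of all genes past 2-fold were 0.455% with catechin, 0.314% with epicatechin, 0.465% with taxifolin and 0.728% with resveratrol. PLAT differed by -0.28, 0.20, -0.37 and -0.31 in that order. Epicatechin was thus the only compound with a PLAT signal above the untreated one. PLAU was lower with catechin, epicatechin and resveratrol on both probe sets, at -0.28, -0.20 and -0.30 on the brighter and -0.33, -0.44 and -0.19 on the dimmer. With taxifolin its probe sets had opposite signs, 0.10 and -0.23. The brightest PLAUR probe set stayed within -0.07 to 0.08 of untreated over the 4 compounds. SERPINE2 lay at 0.02, 0.04, -0.04 and -0.16. All 4 comparisons share the untreated array, so they are not independent of one another.

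Only epicatechin and taxifolin were given at the same dose and time, which made 1 pair. Epicatechin is a flavan-3-ol, and taxifolin is a dihydroflavonol that also carries a ketone group on the central ring. PLAT read 15733 with epicatechin and 10632 with taxifolin, a log2 difference of 0.57, and 3.8% of all genes differed at least as much in either direction. PLAU differed by -0.30, PLAUR by -0.10 and SERPINE2 by 0.07, sizes that 17.7%, 58.9% and 69.9% of all genes reached. None of the 4 genes was past 2-fold between these arrays, where 0.324% of all genes were. Without replicates no interval can be put on these differences. Catechin, the stereoisomer of epicatechin, was present at a higher concentration, and its PLAT signal of 11264 is given beside the 15733 of epicatechin without a comparison.

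Ordered from high to low, the PLAT signal ran from epicatechin over untreated, catechin, resveratrol and taxifolin to pycnogenol serum and control serum. The steps between neighbours were 0.20, 0.28, 0.02, 0.06, 0.62 and 0.18 (log2). The SD over bright genes between arrays without test serum was up to 0.17, and the steps among catechin, resveratrol and taxifolin were below it. The steps of 0.20, 0.28 and 0.18 were above it, and the step of 0.62 to the serum arrays was the widest. The SD of PLAT itself over the 5 arrays without test serum was 0.24, and those arrays include the step of 0.28. Both SDs come from differently treated arrays and measure no spread between cultures, so passing them does not separate cultures. For PLAU the order was taxifolin, untreated, epicatechin, catechin, resveratrol, control serum and pycnogenol serum, with only the step of 0.20 from untreated to epicatechin above 0.17. PLAUR had the same order of cultures, with no step above 0.16, each gene being read from its brightest probe set. The other probe sets did not share this order. The dimmer PLAU probe set, 211668_s_at, was highest untreated, at 6179. Of the other PLAUR probe sets, 211924_s_at was highest with resveratrol, at 7035, and 214866_at with control serum, at 2301. SERPINE2 ran from pycnogenol serum over epicatechin, catechin, untreated, control serum and taxifolin to resveratrol, with no step above 0.13.

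The genes whose log2 signal followed each member most closely over the 7 arrays were sought among genes that themselves ranged over at least 1.5-fold. For PLAT they were WDR45, an autophagy factor, with a Pearson r of 0.994, MLLT3, a reader of acylated histones, with 0.987, and RHOT1, a mitochondrial GTPase, with 0.986. WDR45 read 3187 untreated, 1753 with control serum and 2051 with pycnogenol serum, RHOT1 read 5346, 3376 and 3573, and MLLT3 read 874, 608 and 638. For PLAUR they were IER3, an immediate early regulator of cell survival, with 0.989, CYP20A1 with 0.98 and KIAA1217 with 0.979. IER3 read 15984 untreated, 12541 with control serum and 11236 with pycnogenol serum. For PLAU they were CHCHD5 with 0.964, VPS13B with 0.95 and MTIF3, a mitochondrial translation initiation factor, with 0.944. For SERPINE2 they were FSCN1, which encodes the actin-bundling protein fascin, with 0.977, NUP188, a nuclear pore protein, with 0.952, and PPP3CA, the catalytic subunit of calcineurin, with 0.948. FSCN1 ran from 2048 with resveratrol to 3356 with pycnogenol serum, the same arrays that were lowest and highest for SERPINE2. Such likeness follows largely from choosing the genes by correlation over these same arrays. The 7 points of every gene share whole arrays. An r of at least 0.9 was reached by 142 of 3238 candidate genes (4.39%) with PLAT. Of 3239 candidates each, 179 (5.53%) reached it with PLAUR, 11 (0.34%) with PLAU and 19 (0.587%) with SERPINE2.

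**Figure D4:**
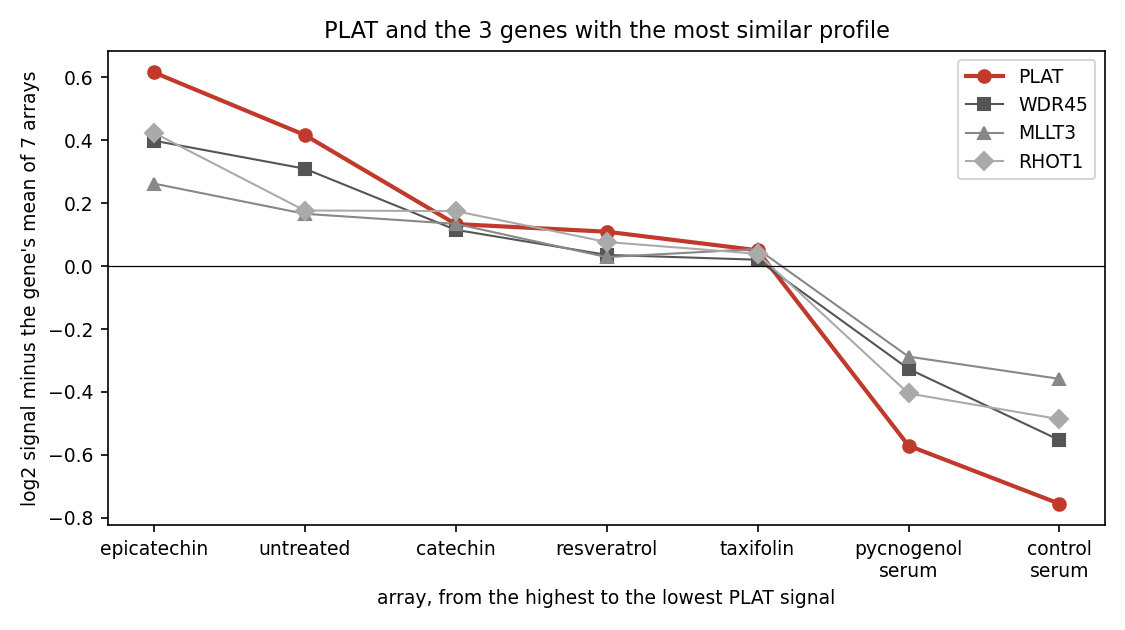
Log2 signal minus the gene's own mean of the 7 arrays for PLAT, WDR45, MLLT3 and RHOT1, with arrays ordered from the highest to the lowest PLAT signal. All 4 genes step down between taxifolin and pycnogenol serum, where the PLAT step is 0.62. WDR45, MLLT3 and RHOT1 were chosen for their correlation with PLAT over these arrays, so the shared step follows largely from the choice.

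Of 28 further genes of the system that the annotation named alone, 18 passed the signal filter, and 1 of the 18, VLDLR, was past 2-fold in any comparison. With control serum against untreated 1 of the 18 was lower and none was higher by at least 2-fold, where 0.758% of all genes were lower and 0.445% higher. The counts were the same with pycnogenol serum against untreated, where 1.51% of all genes were lower and 0.728% higher. Their median differences were -0.02 and -0.01, beside 0.008 and 0.017 over all genes. With each of the 4 compounds no gene of the 18 was past 2-fold. With pycnogenol serum against control serum none was either, but VLDLR lay at the threshold, and under median centring it was past 2-fold at -1.05. In both serum arrays together, 4 of the 18 lay below the other 5 arrays and 2 above, near the shares over all genes.

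Plasminogen itself, PLG, read 79 to 137 and did not pass the filter. Of its surface docking sites, PLGRKT, a plasminogen receptor with a terminal lysine, had the widest range past the filter and read 2531 untreated, 2704 with control serum and 2122 with pycnogenol serum. The annexin pair ANXA2 and S100A10 stayed within 0.21 of untreated in every culture. Of 6 proteases able to activate the urokinase precursor, 3 passed, and F12, coagulation factor XII, ranged most, from 350 with catechin over 545 untreated to 628 with pycnogenol serum. Among the 5 inhibitors on the list only SERPINI1, the gene of neuroserpin, an inhibitor of tissue-type activator, passed. It read 322 untreated, 361 with control serum and 276 with pycnogenol serum, close to the filter.

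The clearance receptors take up complexes of activators with their inhibitors. VLDLR, the very low density lipoprotein receptor and one of these, read 2865 untreated, 1839 with catechin, 2688 with epicatechin, 2717 with taxifolin and 1906 with resveratrol, against 1322 with control serum and 662 with pycnogenol serum. Its log2 difference from untreated was -1.12 with control serum and -2.11 with pycnogenol serum, and both serum arrays lay below the other 5. Pycnogenol serum against control serum gave -1.0, just short of 2-fold, and -0.99 under quantile normalization. Under median centring the value with control serum against untreated was -0.95, which is no longer past 2-fold. It has 1 probe set. LRP1, the main receptor of this kind, read 134 to 245 and did not pass. Among partners of the urokinase receptor at the membrane, ITGA5 had the widest range past the filter, from 1106 with resveratrol to 1970 with pycnogenol serum. ITGB3, which did not pass the filter, ranged more widely and read 270 untreated, 143 with control serum and 136 with pycnogenol serum, both below all other arrays. EGFR read 4242 untreated, 2989 with control serum and 2411 with pycnogenol serum, at -0.51 and -0.82, and its next probe sets past the filter gave -0.72 and -0.49 on 201983_s_at and -0.25 and -0.27 on 201984_s_at. On 201983_s_at the serum arrays did not lie below the others: it read 1887 and 2207 with serum, but also 2172 with catechin, 2044 with taxifolin and 1837 with resveratrol. The integrin subunit ITGA3 was lower in both serum arrays, at -0.42 and -0.44, and ITGAV, which pairs into vitronectin receptors, was higher in both, at 0.30 and 0.36. EGFR, ITGB3, ITGA3 and ITGAV were picked after their values were seen. Under median centring the brightest EGFR probe set no longer lay below all other arrays, while ITGA3 and ITGAV kept their positions.

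**Figure D5:**
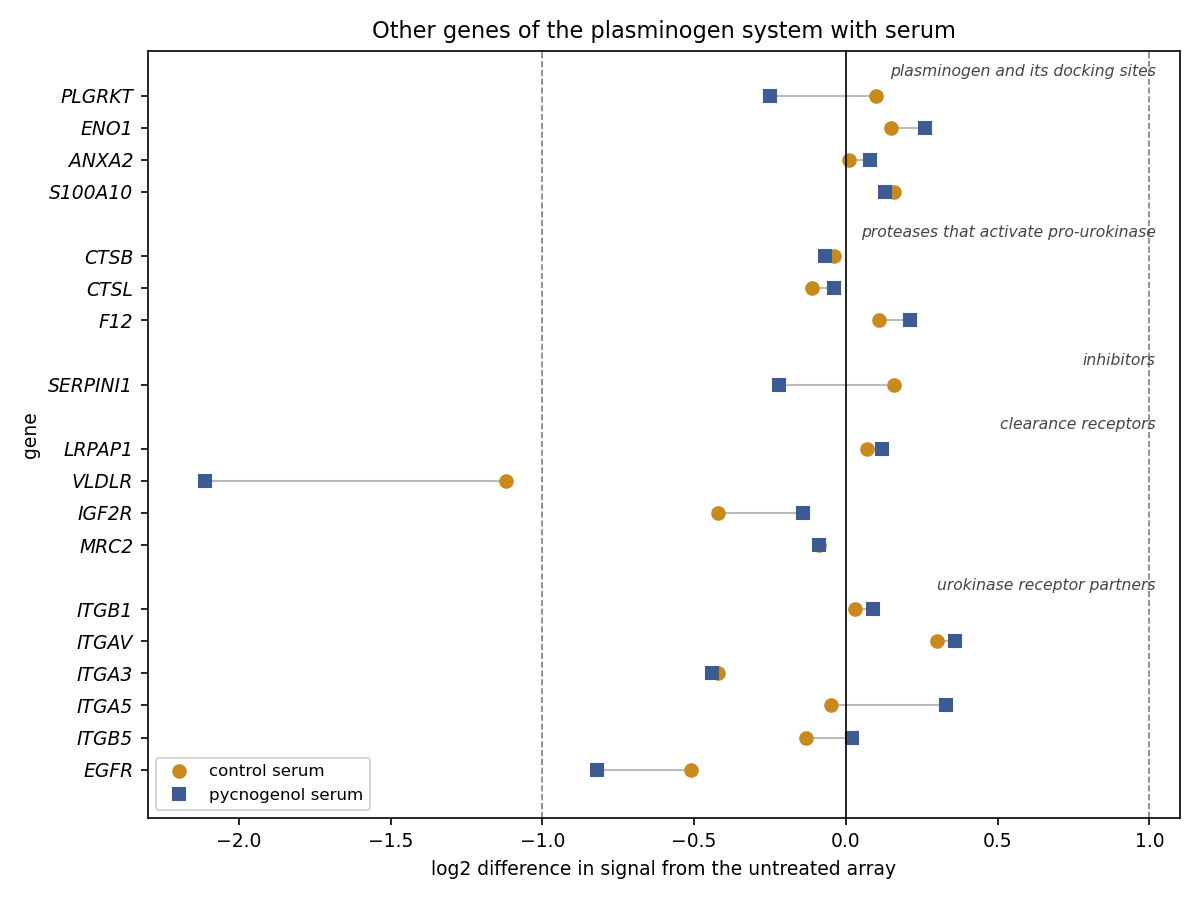
Log2 difference from the untreated array with control serum (circles) and pycnogenol serum (squares) for the 18 further genes of the plasminogen system past the signal filter, grouped by role; dashed lines mark 2-fold. VLDLR, at -1.12 and -2.11, is the only gene beyond a dashed line.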

How the data were processed

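HT1080 cells were measured on 7 arrays, 1 per condition. The deposited values are MAS5 signal intensities, per the submitters' processing notes; its version is not given in the sources used here, and no detection calls were at hand. Their 2% trimmed means were checked and were equal at 1000, so an array with broader change would be rescaled as a whole. Of 54675 probe sets, 41097 were assigned to 1 gene by the platform annotation, 1801 named several genes and 11777 had no entry, and symbols were brought up to date with RefSeq's GRCh38 table. Signals under the 25th percentile, 34.86, were raised to it, log2 was taken, and each gene was read from its brightest probe set. The filter kept genes at or above the median gene, 8.07 (log2). A difference is log2 of the first array minus log2 of the second, and past 2-fold means 1 or more in size. No test was possible with 1 array per group, and array number limits the precision. Alternatives were run with R 4.3.3 and limma 3.58.1 (quantile, cyclic loess) and Python 3.11.15 with pandas 2.3.3. The reading was run on simulated data with less noise than these arrays and with changes larger than any of a member gene. That run therefore cannot show how the reading does for changes near 2-fold. Genes outside the 4 were named in part by a rule. The rule took the 3 with the highest Pearson correlation to each member over 7 arrays. It also took every further gene of the plasminogen list past 2-fold and in each role the one with the widest range past the filter. The cell type markers, PLG, ANXA2, S100A10, LRP1, EGFR, ITGB3, ITGA3 and ITGAV were named outside this rule. The members and lists were chosen with earlier results of these data known.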

Additional observations from a re-analysis of the deposited data

How the results depend on the processing

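Of 262 differences of a member gene recomputed under an alternative, 256 moved by less than 0.254 (log2), the median SD over genes between pairs of arrays without test serum, and 6 moved by more. This yardstick covers all genes compared and is wider than the 0.131 to 0.17 of the brightest genes, among which the 4 lie. PLAT with epicatechin went from 0.20 to 0.44 with the mean of the other arrays without test serum as reference, yet counts among the 256. The 256 include the alternatives of the floor and the signal filter, which could not change these values because all members are bright. The mean of all probe sets could not change PLAT either. Leaving out _x_at and _s_at probe sets could not change SERPINE2, which is read from 212190_at. All these cases are no evidence of stability. The only difference past 2-fold, PLAT with control serum, kept its sign under every alternative that read it, but 11 of the 28 differences crossed 0 under some alternative, 6 of SERPINE2, 4 of PLAUR, 1 of PLAU and 0 of PLAT. PLAT with control serum against untreated ranged from -1.22 to -1.0 and with pycnogenol serum from -1.04 to -0.84. The count of member genes past 2-fold with control serum against untreated was 1; it was 0 at a threshold of 3-fold, which 0.182% of all genes passed, and 0 without _x_at and _s_at probe sets, where PLAT and PLAU have no probe set left and are not read. With pycnogenol serum against untreated the count was 0, and it was 1 under quantile normalization, 1 under cyclic loess and 1 at a threshold of 1.5-fold, where 2.06%, 2.1% and 10.0% of all genes were past the threshold. The mean of all probe sets moved SERPINE2 to -0.78 with epicatechin and -0.44 with catechin, since it averages in the probe set near background. PLAUR with control serum against untreated was 0.24 without _x_at and _s_at probe sets. No paired analysis was possible because each group has 1 array. Only 1 probe set reads PLAT, and no replicate measures the spread between cultures.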
